A study of Rattus norvegicus with 6 samples.

Results

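The cell death genes described here are the BCL2 family, the caspases and their partners in apoptosis, necroptosis and pyroptosis. They are 37 genes, taken by gene name from a table of read counts on 33566 genes. Of these names, 34 had a row and all 34 had enough reads to be tested, while Mcl1, Hrk and Bbc3 were not analysed here. RNA was sequenced from 6 libraries of rBMECs, primary endothelial cells of brain capillaries, which were isolated from the cerebral cortex (forebrain in the study's methods) of SD rats aged 18 to 22 days, cleared of other cells with a screening solution and passaged once before treatment. The Hcy group (3 libraries) received homocysteine and the Veh group (3 libraries) its solvent, ddH2O, for 24 h. The labels give a dose of 100 μM for Hcy and also describe a solution of 50 μM. The labels do not say whether the 3 libraries of a group came from separate isolations or cultures, so the p-values measure only the spread between these libraries, which may be technical. The study asked how Hcy affects the function of these cells.

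Apoptosis through mitochondria is set by the balance within the BCL2 family. Prosurvival members hold the pore-forming effectors in check, and BH3-only proteins release or activate those effectors. The open pore lets cytochrome c out to assemble the apoptosome with APAF1, on which caspase-9 is activated, and the initiator caspases then cleave executioner caspases. Death receptors reach the same executioners through FADD and caspase-8, and where caspase-8 is blocked, RIPK1, RIPK3 and MLKL can carry out necroptosis. Inflammatory caspases cut gasdermin D, which forms pores in the plasma membrane in pyroptosis. Much of this control acts on proteins already made, by binding, cleavage and release, which counts of mRNA do not measure.

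The reads counted on genes numbered 14024997 to 16764584 per library, and 3 counts, taken as the floor of detection, corresponded to 0.178 to 0.215 CPM (counts scaled to library size, here with edgeR's TMM factors). This floor covers counting error only. Endothelial markers summed to between 9946 and 10355 CPM in the Hcy libraries and between 8442 and 9686 CPM in the Veh libraries, and 0 of the 13 tested passed at an adjusted p of 0.05 with edgeR. At an unadjusted p of at most 0.05 there were 7, with Kdr, Flt1 and Vwf higher and Tek, Slc2a1, Slco1a4 and Mfsd2a lower in Hcy, where 13.4% of all genes reached it. Cldn5, the claudin of the brain barrier, was listed at 0 in every library. The microglial markers summed to at most 3.09 CPM, with Ptprc, Cx3cr1 and P2ry12 at 0. The astrocyte markers summed to between 113 and 117 CPM in Hcy and between 126 and 151 CPM in Veh, nearly all of it Gja1, a connexin gene, while Aqp4 and Slc1a2 were at 0. Gja1 was lower in every Hcy library (log2 fold change -0.28, unadjusted p = 0.00811, edgeR adjusted p = 0.152). The neuronal markers summed to at most 9.77 CPM, mainly Tubb3 and Syt1, with Rbfox3, Snap25 and Map2 at 0, and the oligodendrocyte markers to at most 12.4 CPM, mainly Mog. The fibroblast markers summed to between 44.9 and 68.7 CPM in Hcy and between 63.5 and 91.2 CPM in Veh, mainly Col1a1. Col1a1 had a log2 fold change of -0.52 (unadjusted p = 0.0247, edgeR adjusted p = 0.264). Of the 4 tested, 3 had log2 fold changes above 0, and the list median was 0.30. Among these 3, Col3a1 had a log2 fold change of 0.47 (unadjusted p = 0.0474, edgeR adjusted p = 0.363). The pericyte and smooth muscle markers summed to between 681 and 708 CPM in Hcy and between 1124 and 1352 CPM in Veh. Tagln and Acta2 carried nearly all of these sums. Of 11 tested, 3 passed, all lower in Hcy (Acta2, Tagln and Cnn1), where 2.34% of all genes passed, 1.01% as lower. But 6 of the 11 had log2 fold changes above 0 and the list median was 0.44. Pdgfrb lay between 1.21 and 3.63 CPM in all libraries, and Cspg4 (log2 fold change 1.66, edgeR adjusted p = 0.188) and Rgs5 (1.26, adjusted p = 0.464) had no more than 16 reads in a library, with every Hcy library above every Veh library. Kcnj8, with no more than 13 reads, lay the other way, with every Hcy library below every Veh library (log2 fold change -0.99, edgeR adjusted p = 0.460). The part of these markers in the results below was not tested, and in bulk RNA fewer cells of a type and less RNA per cell cannot be told apart.

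Most cell death genes differed little between Hcy and Veh. With edgeR's quasi-likelihood test, 2 of the 34 passed, both lower in Hcy and 0 higher, at a threshold of 0.05 on the p-value adjusted over all genes by the method of Benjamini and Hochberg. Of the 14603 genes tested 2.34% passed, 1.01% as lower and 1.32% as higher. They were Mdm2, a ubiquitin ligase, and Bcl2l1, the gene of the prosurvival protein BCL-XL. None of the cell death genes (0 of 34) also reached an absolute log2 fold change of 1, the further condition for being called differentially expressed, which 0.486% of all genes met, and DESeq2 likewise gave 0. At an unadjusted p of at most 0.05 the count was 4 of 34 (11.8%), 2 lower and 2 higher, where it was 13.4% of all genes (5.95% lower and 7.44% higher). The median log2 fold change (Hcy relative to Veh) was -0.02 over the 34 genes and -0.02 over all genes, and the median size of the change, whatever its sign, was 0.11 over the 34 and 0.15 over all genes. The 34 values ran from -0.72 to 0.47, with 14 above and 20 below 0.

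**Figure D1:**
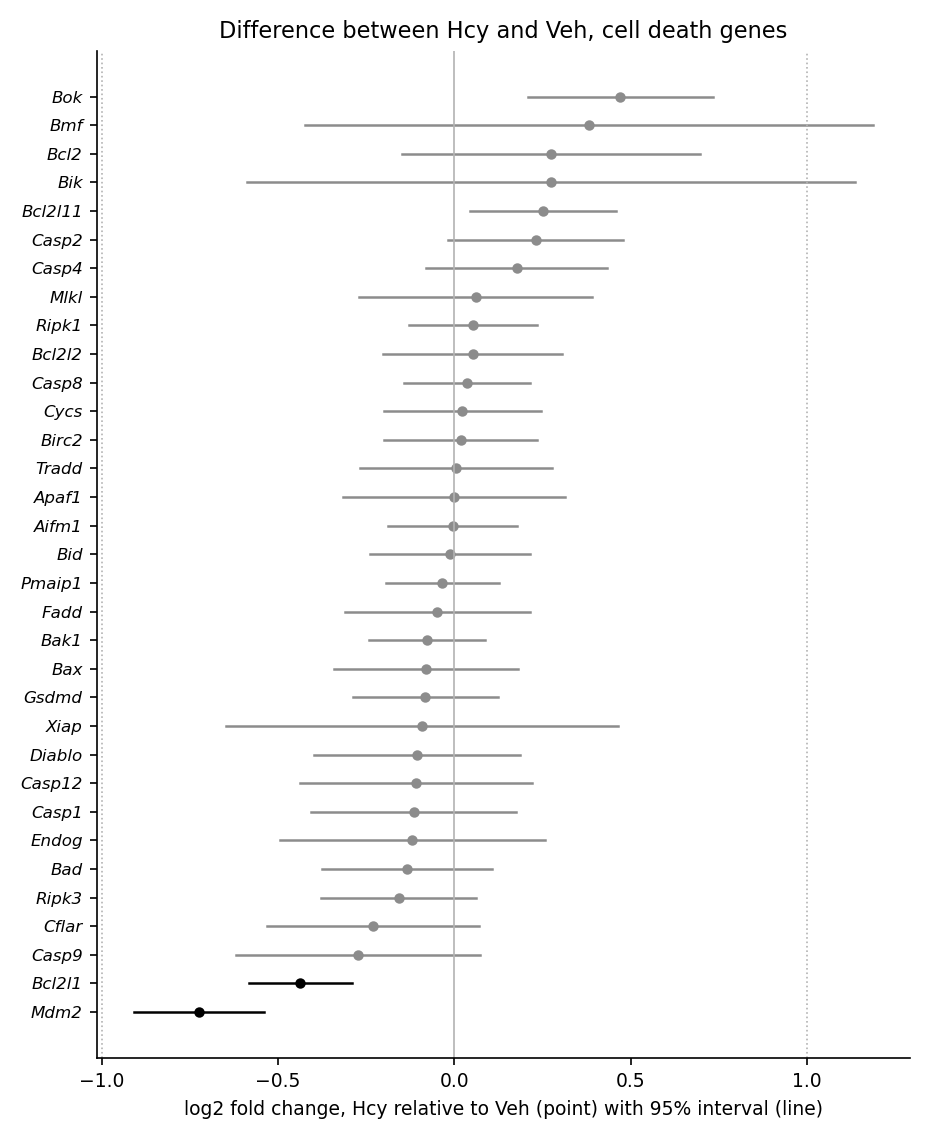
Log2 fold change of 33 cell death genes, Hcy relative to Veh, from edgeR (points) with 95% intervals (lines); black marks an adjusted p of at most 0.05, and dotted lines mark a log2 fold change of -1 and 1. Mdm2 (-0.72) and Bcl2l1 (-0.44) sit apart at the lower end, Bok (0.47) at the upper end, and most others lie close to 0. Casp6, whose interval runs from -2.37 to 1.96, is left out for scale.

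The 95% intervals say how large a difference these libraries could still hold. They lay wholly inside a log2 fold change of -1 to 1 for 31 of the 34 genes, the exceptions being Bik, Bmf and Casp6, the 3 genes with the lowest levels. For 24 genes the interval lay inside -0.5 to 0.5, and for 30 it held 0. A missed threshold therefore does not show equal levels, but changes of 2-fold were outside the interval for all but those 3.

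Among the 3 prosurvival members analysed (Mcl1 was not analysed here), Bcl2l1 carried most of the mRNA and fell with Hcy. Compared per kilobase of the gene length in the table, its mean level over the 6 libraries was 51.2 CPM per kilobase, against 8.56 for Bcl2l2, the gene of BCL-W, and 2.50 for Bcl2 itself. Bcl2l1 (ENSRNOG00000007946; listed on chromosome 3 from 148259596 to 148313810, minus strand, in a table that names no genome build, so that positions may not belong to the builds named in the processing notes) had 185, 175 and 178 CPM in Hcy replicates 1, 2 and 3 and 238, 241 and 248 CPM in Veh replicates 1, 2 and 3. All 3 Hcy libraries lay below all 3 Veh libraries, and the gap between the groups was several times the spread within either. The Hcy mean was 179 ± 5.06 CPM and the Veh mean 242 ± 5.47 CPM (SD, n = 3 each), a log2 fold change of -0.44 (SE 0.06, edgeR adjusted p = 0.012). Leaving out Hcy replicate 1, 2 or 3 raised the edgeR adjusted p to 0.0627, 0.0763 and 0.0825, with log2 fold changes of -0.46, -0.42 and -0.43. Another gene row, LOC108353446, lies within Bcl2l1 on the opposite strand, with a mean of 3678.5 counts where Bcl2l1 had 3255.5. It had a log2 fold change of -0.18 (edgeR adjusted p = 0.633). Since the sources do not say whether counting used strand, reads of these 2 genes may not have been told apart.

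The other prosurvival genes gave no call. Bcl2 had 5.67, 6.18 and 5.07 CPM in the Hcy libraries and 4.99, 5.16 and 3.81 CPM in the Veh libraries, so that the groups overlapped. Its log2 fold change was 0.27 (95% interval -0.15 to 0.70, edgeR adjusted p = 0.600). Bcl2l2 ran from 26.7 to 33.6 CPM over the 6 libraries, with a log2 fold change of 0.05. As Bcl2l1 outweighed both, the summed level of the 3 prosurvival genes followed it: 55.2, 54.9 and 54.7 CPM per kilobase in the Hcy libraries and 69.2, 69.6 and 69.8 in the Veh libraries.

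Of the pore-forming effectors, Bax and Bak1 were abundant and Bok was scarcer. Bax, which opens the outer mitochondrial membrane, had 142, 135 and 149 CPM in Hcy and 134, 138 and 180 CPM in Veh. The Hcy libraries fell among the Veh libraries, 1 of which (replicate 3) was the highest of the 6, and the log2 fold change was -0.08 (95% interval -0.34 to 0.18, edgeR adjusted p = 0.838). Without Veh replicate 3 it was 0.07. Bak1, its close relative, ran from 108 to 124 CPM, with a log2 fold change of -0.08 (95% interval -0.24 to 0.09).

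Bok, an effector-type member found largely at the endoplasmic reticulum, was the cell death gene with the largest positive value. It had 20.6, 22.0 and 23.6 CPM in Hcy and 14.4, 15.9 and 17.7 CPM in Veh. All 3 Hcy libraries were above all 3 Veh libraries, but its edgeR adjusted p was 0.085 (log2 fold change 0.47, SE 0.12, unadjusted p = 0.00279), so it did not pass. It passed with DESeq2 (adjusted p = 0.0288), with edgeR without Veh replicate 3 (adjusted p = 0.0191) and with edgeR after a correction for gene length described below (adjusted p = 0.0283). In the other edgeR fits tried, its adjusted p reached 0.333.

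The ratio of Bax to Bcl2, often read as a measure of readiness for apoptosis, did not separate the groups. Per kilobase it was 40.3, 35.2 and 47.4 in the Hcy libraries and 43.2, 42.9 and 76.1 in the Veh libraries, with means of 41.0 and 54.1. The highest ratio was that of Veh replicate 3, the library with the highest Bax and the lowest Bcl2. Against Bcl2l1, a denominator chosen after the values were seen, the ratio of Bax was 2.48, 2.49 and 2.70 in Hcy and 1.81, 1.84 and 2.33 in Veh, with every Hcy library above every Veh library. The 3 effectors together summed to 183, 175 and 187 CPM per kilobase in Hcy and 171, 174 and 214 in Veh.

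**Figure D2:**
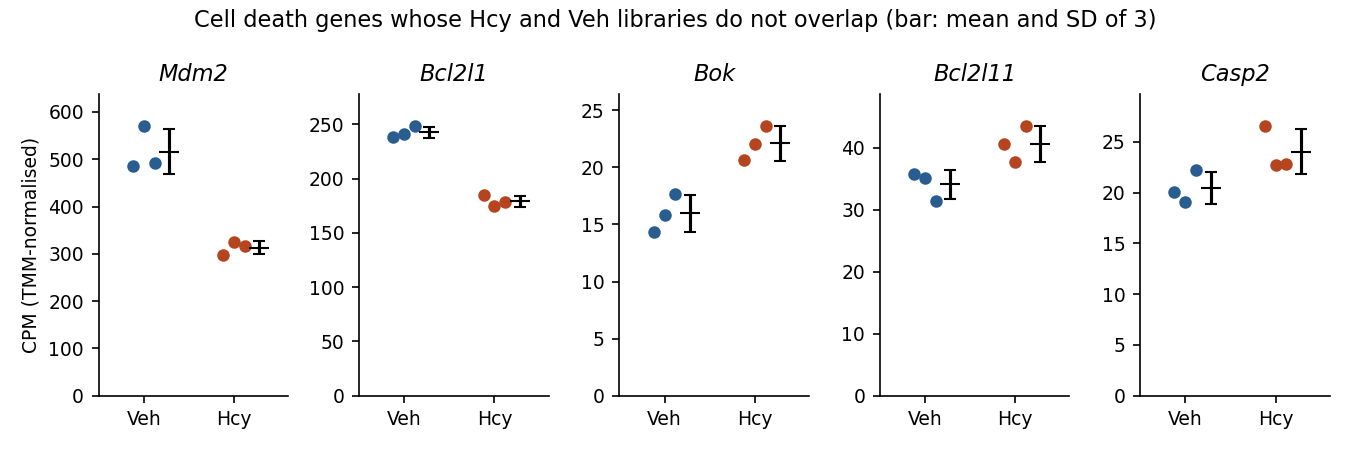
CPM (linear axis from 0) of the 5 cell death genes whose Hcy and Veh libraries do not overlap; each point is a library, and the cross with its bar is the mean and SD of 3 libraries. Mdm2 and Bcl2l1 are lower in Hcy, and Bok, Bcl2l11 and Casp2 are higher by smaller margins.

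In all, 5 of the 34 genes (14.7%) had groups that do not overlap, 2 lower and 3 higher in Hcy, where 20.1% of all genes tested did (9.27% lower and 10.8% higher). The 3 higher genes, Bok, Bcl2l11 and Casp2, each missed the adjusted threshold with edgeR.

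The BH3-only genes gave no call at the adjusted threshold. Pmaip1, the gene of NOXA, which neutralises MCL1, had the highest level of the group at 51.7 CPM per kilobase. Its values were 135, 141 and 148 CPM in Hcy and 139, 149 and 146 CPM in Veh, with a log2 fold change of -0.03 (95% interval -0.19 to 0.13), among the narrowest intervals of all 34 genes. Bcl2l11, the gene of BIM, which binds all prosurvival members, had 40.6, 37.7 and 43.6 CPM in Hcy and 35.7, 35.1 and 31.5 CPM in Veh. Its groups did not overlap, with a log2 fold change of 0.25 (SE 0.09, unadjusted p = 0.0223, edgeR adjusted p = 0.249).

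The remaining BH3-only genes overlapped between groups. Bad, which is switched off by survival signalling through phosphorylation, ran from 34.3 to 45.9 CPM (log2 fold change -0.13). Bid, which caspase-8 cuts to link death receptors to mitochondria, ran from 31.6 to 38.3 CPM (log2 fold change -0.01). Bik and Bmf were at the bottom of the family, with 0.828 to 2.57 CPM and 0.692 to 1.66 CPM, and intervals from -0.59 to 1.14 and from -0.42 to 1.19. At this depth neither could be shown to differ.

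Mdm2 showed the largest difference of the 34 genes. Its protein is a ubiquitin ligase, an enzyme that marks other proteins for degradation. Mdm2 (ENSRNOG00000006304; listed on chromosome 7 from 60719066 to 60743328, minus strand) had 297, 325 and 316 CPM in Hcy replicates 1, 2 and 3 and 486, 571 and 493 CPM in Veh replicates 1, 2 and 3. The highest Hcy library was far below the lowest Veh library. The Hcy mean was 313 ± 14.2 CPM and the Veh mean 516 ± 47.1 CPM (SD, n = 3 each), a log2 fold change of -0.72 (SE 0.08, edgeR adjusted p = 0.00353), or 1.65-fold higher in Veh. By p-value it ranked 40 among the 14603 genes. Mdm2 passed under every alternative tried, with log2 fold changes from -0.76 to -0.65 and an edgeR adjusted p of at most 0.0346 when single libraries were left out.

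The promoter windows of the 2 genes that fell are shown so that their sequence can be read beside the counts. They are RefSeq windows on the GRCr8 build, from 250 bases before to 50 bases after the annotated start, 5′ to 3′ on the minus strand of chr7:55200742-55201041 for Mdm2 and of chr3:161764726-161765025 for Bcl2l1 (1 of 4 RefSeq windows of this gene). Capitals mark the letters CCGGAAG, a core of ETS family sites, or their reverse complement CTTCCGG.
Mdm2: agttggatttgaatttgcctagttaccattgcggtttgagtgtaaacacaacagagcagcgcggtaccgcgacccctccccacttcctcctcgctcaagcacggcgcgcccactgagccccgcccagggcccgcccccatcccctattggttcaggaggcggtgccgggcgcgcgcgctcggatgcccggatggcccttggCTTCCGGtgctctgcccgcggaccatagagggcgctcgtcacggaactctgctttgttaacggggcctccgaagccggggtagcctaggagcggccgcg
Bcl2l1: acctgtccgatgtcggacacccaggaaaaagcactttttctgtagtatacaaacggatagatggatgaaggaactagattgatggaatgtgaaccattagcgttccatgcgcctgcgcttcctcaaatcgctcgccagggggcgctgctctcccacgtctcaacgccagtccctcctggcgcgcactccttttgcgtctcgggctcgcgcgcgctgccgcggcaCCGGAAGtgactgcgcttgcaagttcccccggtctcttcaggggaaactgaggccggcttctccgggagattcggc
The match begins 49 bases before the start in Mdm2 and 26 bases before it in Bcl2l1. This motif was chosen after the windows had been looked at, and it was present on either strand in 8.75% of the 33469 promoter windows of the table and in at least 1 window of 6 of the 28 cell death genes that have any. These figures count windows and genes, and some genes have several windows. Of the 4 windows of Bcl2l1, the one printed and one other hold the letters, and the other two do not. A match is a description of sequence, not a bound site.

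The genes downstream of the mitochondrial pore gave values close to 0. Cycs, the gene of cytochrome c and also an electron carrier of respiration, had the highest level of the 34 genes, at 212 CPM per kilobase. Its values were 258, 261 and 253 CPM in Hcy and 227, 238 and 294 CPM in Veh. The 3 Hcy libraries lay between Veh replicates 2 and 3, and the log2 fold change was 0.02 (95% interval -0.20 to 0.25). Other rows of the table are annotated to the same protein as Cycs, among them LOC100363502 with a mean of 438.5 counts where Cycs had 3918, and how alike their sequences are was not tested.

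Apaf1, the scaffold of the apoptosome, had a log2 fold change of -0.0013 (95% interval -0.32 to 0.31), with 39.3 to 42.3 CPM in Hcy and a wider range of 31.3 to 47.3 CPM in Veh. Diablo, the gene of SMAC, which displaces the inhibitor of apoptosis proteins from caspases, ran from 25.8 to 36.5 CPM (log2 fold change -0.10). Aifm1, a mitochondrial flavoprotein that can move to the nucleus in cell death, ran from 58.2 to 65.7 CPM (log2 fold change -0.0041). Endog, a mitochondrial nuclease, had a lower level of 4.37 to 5.22 CPM (log2 fold change -0.12). None of these 5 genes passed, and Hcy and Veh overlapped in each. Spout1, with a mean of 221.5 counts where Endog had 74, overlaps Endog on the opposite strand. As for Bcl2l1, their reads may not have been told apart.

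**Figure D3:**
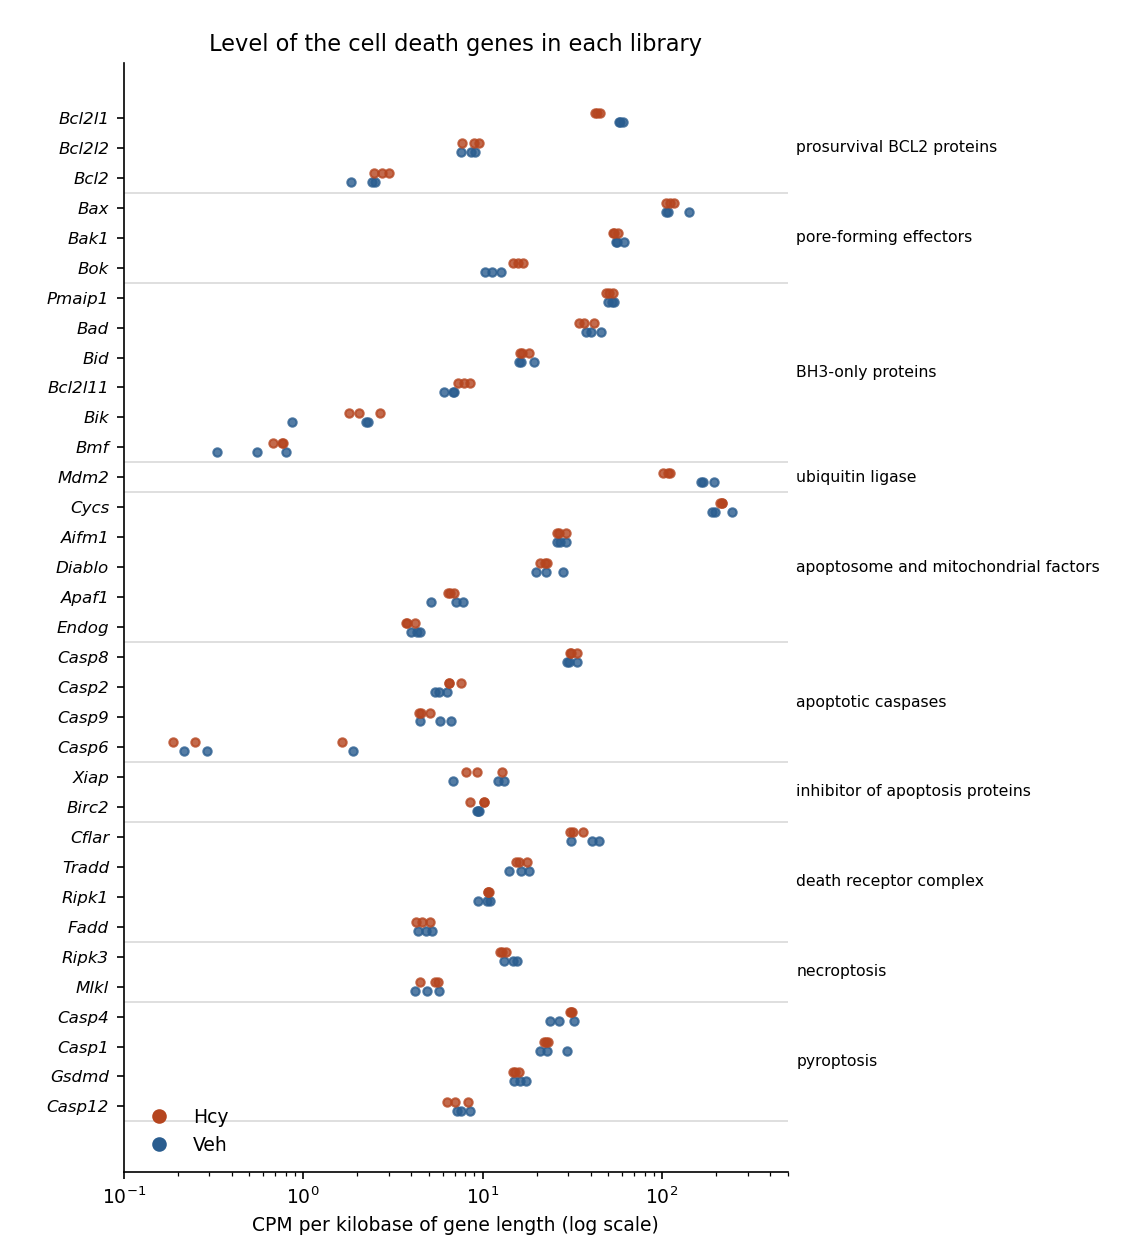
Level of the 34 cell death genes in each library, as CPM per kilobase of gene length on a log axis, grouped by role; each point is a library, Hcy above and Veh below on each line. Cycs (mean 212), Mdm2 (141) and Bax (114) lead, Bmf (0.648) and Casp6 (0.751) are lowest, and for most genes the points of both groups intermingle.

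Among the apoptotic caspases, Casp8, the initiator of the death receptor route, had the highest level per kilobase (31.5). It had 68.2, 62.4 and 63.3 CPM in Hcy and 60.2, 67.6 and 61.4 CPM in Veh, with full overlap and a log2 fold change of 0.04 (95% interval -0.14 to 0.21). Casp2, an initiator-type caspase tied to DNA damage and chromosome errors, had 26.6, 22.7 and 22.8 CPM in Hcy and 20.1, 19.1 and 22.2 CPM in Veh. Its groups were just apart, and the log2 fold change of 0.23 did not pass (edgeR adjusted p = 0.418). Casp9, the initiator on the apoptosome, ran from 13.6 to 15.7 CPM in Hcy and from 14.0 to 20.6 CPM in Veh, with a log2 fold change of -0.27 (95% interval -0.62 to 0.07, edgeR adjusted p = 0.509).

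Casp6, an executioner caspase that cuts lamins, differed by library number more than by group. It had 5, 47 and 8 reads in Hcy replicates 1, 2 and 3 and 7, 57 and 8 reads in Veh replicates 1, 2 and 3. Both replicate 2 libraries were high and the other 4 were near the floor, the lower of the replicate 2 libraries being 5.70 times the highest of the others in CPM. Among genes with at least 10 counts, a gap of at least 4-fold of this kind was found for 3, Casp6, Entpd1 and AC141521.1. Whether same-numbered libraries share an isolation is not stated. The log2 fold change of -0.21 (95% interval -2.37 to 1.96) is too imprecise to give a direction. Leaving out single libraries moved it from -1.84 to 1.45. A row that shares the protein match of Casp6, LOC103689977, was listed at 0 counts.

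**Figure D4:**
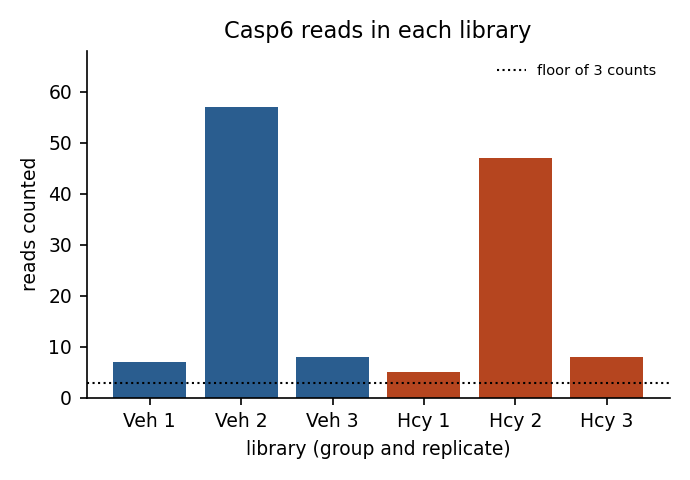
Reads counted on Casp6 in each library, as bars from 0; the dotted line is the floor of 3 counts. Replicate 2 holds 57 reads in Veh and 47 in Hcy, and the other 4 libraries hold 5 to 8.

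Of the inhibitor of apoptosis proteins, Xiap and Birc2 did not separate the groups. Xiap, whose protein binds and blocks caspases directly, had 20.8, 32.9 and 23.7 CPM in Hcy and 31.2, 33.6 and 17.5 CPM in Veh. Libraries of both groups lay at both ends of this range, and the log2 fold change was -0.09 (95% interval -0.65 to 0.46). Birc2, the gene of cIAP1, a ubiquitin ligase of TNF receptor signalling, ran from 27.6 to 33.0 CPM, with a log2 fold change of 0.02 (95% interval -0.20 to 0.24).

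Further inhibitors of apoptosis and their antagonists were a list of 10 genes, of which 7 were tested and 1 passed, higher in Hcy (also 1 with DESeq2, and 2 without Veh replicate 3 or after the gene length correction), where 2.34% of all genes passed. At an unadjusted p of at most 0.05 there were 3, all higher in Hcy and with groups apart, where 7.44% of all genes were higher. Birc3, the gene of cIAP2, had 40.2, 37.6 and 37.5 CPM in Hcy and 32.3, 29.9 and 29.7 CPM in Veh (log2 fold change 0.33, edgeR adjusted p = 0.0925). Birc5, the gene of survivin, which also acts in cell division, had 8.12, 5.17 and 5.49 CPM in Hcy and 2.97, 4.52 and 4.98 CPM in Veh (log2 fold change 0.59, edgeR adjusted p = 0.357). The gene that passed was Septin4, a septin gene with an isoform (ARTS) that antagonises XIAP, which the counts do not separate from the other isoforms. It had 84.3, 71.1 and 77.8 CPM in Hcy and 41.1, 43.8 and 54.5 CPM in Veh, with no overlap, a log2 fold change of 0.74 and an edgeR adjusted p of 0.0136. Dropping each library in turn took it off the list of passing genes in 4 of 6 cases, with log2 fold changes of 0.66 to 0.87.

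In the complex below death receptors, Cflar, the gene of c-FLIP, which blocks caspase-8 activation, had the highest level per kilobase (35.8). It had 70.2, 83.0 and 72.9 CPM in Hcy and 92.6, 102 and 70.5 CPM in Veh. Veh replicates 1 and 2 were above all Hcy libraries, Veh replicate 3 was not, and the log2 fold change of -0.23 did not pass (edgeR adjusted p = 0.525). Without Veh replicate 3 the log2 fold change was -0.37 and the edgeR adjusted p 0.0284. After the gene length correction they were -0.24 and 0.423. Cflar and Casp8 are neighbours on chromosome 9 in the table, Cflar from 65534704 to 65587251 and Casp8 from 65614142 to 65662106, both on the plus strand.

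The adaptors and the kinase of this complex overlapped between groups. Fadd, which recruits caspase-8, ran from 17.1 to 20.9 CPM (log2 fold change -0.05). Tradd, the adaptor of TNF receptor 1, ran from 18.8 to 24.3 CPM (log2 fold change 0.0049). RGD621098, with a mean of 191 counts where Tradd had 335, overlaps Tradd on the opposite strand, and their reads may not have been told apart. Ripk1, whose product stands at the branch between survival, apoptosis and necroptosis, had 48.6, 48.3 and 49.0 CPM in Hcy and 49.9, 47.9 and 42.8 CPM in Veh (log2 fold change 0.05).

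Death receptors and their ligands were a list of 12 genes, with 8 tested and 1 passing (2 with DESeq2, both lower in Hcy), where 2.34% of all genes passed. Tnfrsf1b, the second TNF receptor, which has no death domain, had 16.1, 15.6 and 16.5 CPM in Hcy and 22.6, 22.3 and 23.5 CPM in Veh (log2 fold change -0.51, edgeR adjusted p = 0.0288). With each library dropped in turn it missed the threshold 5 of 6 times. Fas, a death receptor, had 20.5, 20.1 and 22.8 CPM in Hcy and 29.4, 26.3 and 30.8 CPM in Veh, with groups apart but no call (log2 fold change -0.45, edgeR adjusted p = 0.064). Tnfsf10, the gene of the ligand TRAIL, lay the other way at a low level, with 1.72, 1.48 and 2.21 CPM in Hcy and 0.772, 0.828 and 0.761 CPM in Veh (log2 fold change 1.19, edgeR adjusted p = 0.0967). Tnf and Lta were listed at 0 in every library and Faslg at no more than 3 counts. Among 13 tested genes of other BCL2-related proteins, 1 passed, where 2.34% of all genes did. This was Bnip3, a mitophagy receptor that also rises in low oxygen, with 38.0, 40.2 and 40.4 CPM in Hcy and 50.3, 53.8 and 62.6 CPM in Veh (log2 fold change -0.49, edgeR adjusted p = 0.0324). Bnip3 missed the threshold 4 of 6 times when each library was dropped in turn, and with DESeq2 2 genes of this list passed, both lower in Hcy. At an unadjusted p of at most 0.05 there were 3 with edgeR, all lower in Hcy, where 5.95% of all genes were. Groups did not overlap for 4, 3 lower and 1 higher in Hcy, where 20.1% of all genes did not.

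Both necroptosis genes were present and overlapped between groups. Ripk3, the kinase that phosphorylates MLKL, had 27.1, 25.1 and 25.7 CPM in Hcy and 29.4, 26.3 and 31.2 CPM in Veh (log2 fold change -0.16, 95% interval -0.38 to 0.06). Mlkl, the gene of the pore former, ran from 13.4 to 18.0 CPM (log2 fold change 0.06, 95% interval -0.27 to 0.39). Of 16 tested genes of necroptosis and TNF receptor signalling, 0 passed with edgeR and 0 with DESeq2. At an unadjusted p of at most 0.05 there were 3, all lower in Hcy, where 5.95% of all genes were. Zbp1, a sensor that can start necroptosis, had no more than 1 read in any library.

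The pyroptosis genes Casp1, Casp4 and Casp12 lie next to each other on chromosome 8 in the table, between 2604962 and 2686160, and none of them passed. Casp4, the caspase that senses bacterial lipopolysaccharide in the cytosol, had 38.6, 38.2 and 37.4 CPM in Hcy and 29.1, 32.6 and 39.5 CPM in Veh. The Hcy libraries lay close together inside the wider Veh range, with a log2 fold change of 0.18 (edgeR adjusted p = 0.573) and, without Veh replicate 3, of 0.30 (adjusted p = 0.0517). After the gene length correction it was 0.20 (edgeR adjusted p = 0.261). Casp1, which matures interleukin-1β, had 33.5, 34.7 and 35.2 CPM in Hcy and 31.9, 34.8 and 45.4 CPM in Veh (log2 fold change -0.12). Casp12 ran from 8.62 to 11.6 CPM (log2 fold change -0.11), and Gsdmd, the gene of the pore former gasdermin D, from 28.8 to 34.0 CPM (log2 fold change -0.08, 95% interval -0.29 to 0.12).

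The partners of inflammatory caspases ranged from listed at 0 to well above the floor. In a list of 15 inflammasome genes, 9 were tested, Il1b, Il18 and Il1rn were listed at 0 in every library, Nlrp3 had at most 5 reads and Pycard, the adaptor that joins NLRP3 to caspase-1, at most 11. Nlrp1a, an inflammasome sensor, ran from 22.9 to 30.6 CPM and Nek7, a kinase that binds NLRP3, from 25.2 to 39.4 CPM, with overlapping groups. Of the 9 tested, 1 passed, where 2.34% of all genes did. This was Ninj1, which ruptures the plasma membrane late in lytic death, with 190, 176 and 189 CPM in Hcy and 242, 223 and 276 CPM in Veh (log2 fold change -0.42, edgeR adjusted p = 0.0497). It missed the threshold 5 of 6 times when each library was dropped in turn, and 0 genes of the list passed with DESeq2's size factors in edgeR, where 1 did with DESeq2. At an unadjusted p of at most 0.05 there were 4 of the 9 (13.4% of all genes), Ninj1 and, higher in Hcy, Nlrc4, Txnip and Mefv, with log2 fold changes of 0.53, 0.28 and 0.73 and edgeR adjusted p of 0.299, 0.144 and 0.237. Groups did not overlap for 5 of the 9 (20.1% of all genes), 3 higher and 2 lower in Hcy, the lower ones being Ninj1 and Nlrp3.

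Veh replicate 3 stood apart from the other Veh libraries, and many cell death genes moved with it. On the second principal component, which held 26.2% of the variance, it scored 30.4 and Veh replicates 1 and 2 scored -16.0 and -19.0. It was the highest of all 6 libraries for 14 of the 34 genes and the lowest for 8. Its log2 ratio to the mean of the other Veh libraries went with gene length: among 30 cell death genes with a mean of at least 5 CPM, Spearman's rho was -0.71, and over 12296 genes it was -0.47. Bax, Casp1 and Cycs, with short genes, had ratios of 0.41, 0.45 and 0.34, and Apaf1, the longest, had -0.53, while Xiap had -0.89 and Cflar -0.46. The 2 genes that fell moved little, with 0.05 for Bcl2l1 and -0.10 for Mdm2. These correlations describe genes within single libraries, which share the depth of their library and are not replicates.

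**Figure D5:**
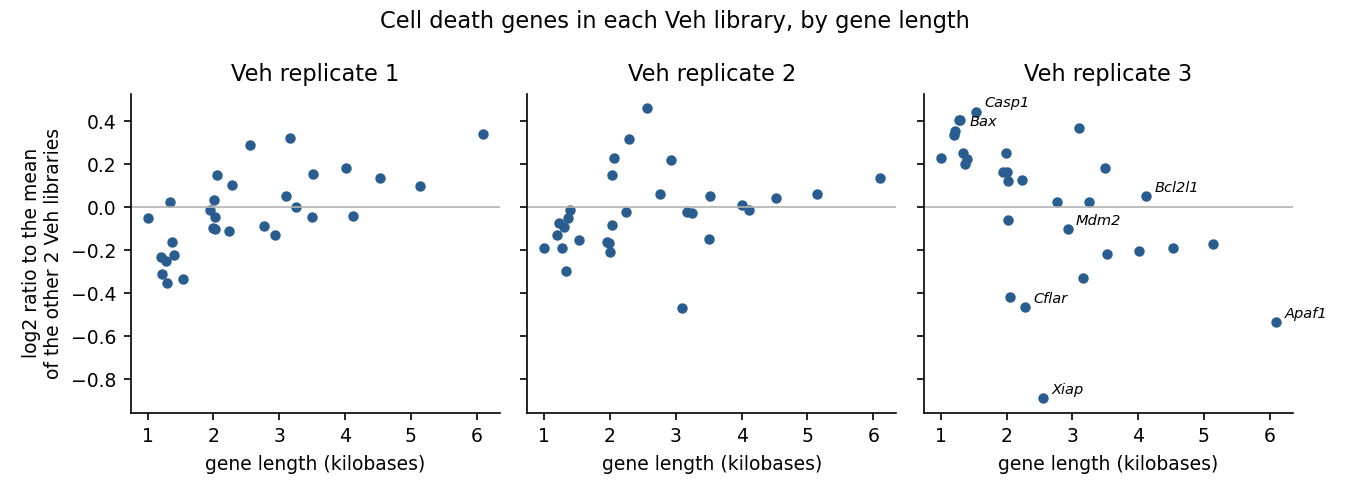
Log2 ratio of each Veh library to the mean of the other 2, for the 30 cell death genes with a mean of at least 5 CPM, against gene length in kilobases (1 point per gene). In replicate 3 short genes lie above 0 and most long ones below (Spearman's rho -0.71). The values of Spearman's rho in replicates 1 and 2 (0.70 and 0.53) are no separate observation, since replicate 3 is part of their comparison.

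Without Veh replicate 3, 4 cell death genes passed with edgeR, Mdm2, Bcl2l1 and Cflar as lower and Bok as higher, while 957 of all genes tested passed in place of 341. This fit is not free of the length trend. Over 12296 genes, Spearman's rho between log2 fold change and gene length was 0.057 with all 6 libraries and -0.17 without Veh replicate 3. With each library's trend against gene length taken out, a correction chosen after seeing the data, 3 passed (Mdm2, Bcl2l1 and Bok) and 613 of all genes did. Whether RNA quality or another property of the library sets this trend was not tested.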

How the data were processed

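Poly(A) RNA of 6 rBMEC libraries (3 Hcy, 3 Veh) was sequenced as paired ends. Counts of reads on each gene were deposited by the authors without normalization, beside gene positions and lengths, and the table names no build. The submitters' processing notes name fastp, HISAT2 2.2.1, StringTie 2.2.3, Cufflinks, featureCounts 2.0.6, DESeq2 1.42.0 and the builds mRatBN7.2 and rn7. Strand use in counting is not given in the sources used here. A deposited table of the authors' own comparison (scaled counts, fold changes, p-values) was not used.

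The 14603 genes whose counts reached a sum of 10 were tested with edgeR 4.0.16 (limma 3.58.1, R 4.3.3): quasi-likelihood test, TMM scaling, condition alone, a prior count of 0.125 and Benjamini-Hochberg adjustment over these genes. The threshold was 0.05 on the adjusted p, and differential expression also required a log2 fold change of 1 in size. CPM values use TMM library sizes, and intervals are 95% intervals of the fit. Libraries held 14024997 to 16764584 counts, and reads without molecular identifiers are not independent molecules.

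The genes described and the pathway and marker lists were chosen with earlier results of these data known. All 37 genes were accounted for. Values in every library were given for those that passed, led their group in level, had an unadjusted p of at most 0.05 or did not overlap, and passing genes were named in the lists reported. Other genes named from the lists and other per-library values were chosen after their values were seen. Part of the lists is left unreported. Alternatives were DESeq2 1.42.0, its size factors (RLE), library totals alone, no filter, filterByExpr, a prior count of 2, the replicate number as a block, leaving out each library and, added after seeing the data, a gene length correction. The scripts were tested on simulated data.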

Additional observations from a re-analysis of the deposited data

How the results depend on the processing

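Mdm2 passed in each of the 14 alternatives and Bcl2l1 in 11, the 3 exceptions being the fits without an Hcy library. The cell death genes that passed numbered 1 to 4 when single libraries were left out, and 0 were differentially expressed under every alternative. Of 475 values of single cell death genes under alternatives, 430 kept their direction and side of the threshold, 3 lost and 4 gained the call, and 38 changed direction, none of them in a gene that had passed. Of those 38, 34 came from leaving out a library and the other 4 were Apaf1, with 0.0018 under DESeq2, 0.0016 under its size factors, 0.019 with the replicate block and 0.012 after the gene length correction. Leaving out a library turned the direction of 17 genes, whose log2 fold changes ranged as follows: Aifm1 -0.058 to 0.039, Apaf1 -0.16 to 0.12, Bax -0.16 to 0.067, Bcl2l2 -0.017 to 0.14, Bid -0.068 to 0.075, Bik -0.059 to 0.50, Birc2 -0.026 to 0.099, Casp1 -0.22 to 0.048, Casp6 -1.84 to 1.45, Casp8 -0.0048 to 0.086, Cycs -0.049 to 0.15, Diablo -0.21 to 0.043, Fadd -0.11 to 0.018, Mlkl -0.040 to 0.18, Ripk1 -0.0075 to 0.10, Tradd -0.090 to 0.094 and Xiap -0.33 to 0.075. The cause of these turns was not tested. Casp6 gave no value under filterByExpr, which drops it.

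Over all genes, 341 passed, 612 with DESeq2, 613 after the gene length correction and 80 to 957 when a library was left out, the lowest without Hcy replicate 1 (95 and 81 without Hcy replicates 2 and 3, 151 and 123 without Veh replicates 1 and 2) and the highest without Veh replicate 3. Those differentially expressed numbered 71, 109 without a filter and 39 to 112 when a library was left out. The ratio of Bax to Bcl2 without gene length had means of 25.4 in Hcy and 33.6 in Veh, and per kilobase its means ran from 37.7 to 43.9 in Hcy and from 43.1 to 59.6 in Veh when a library was left out.

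The replicate numbers were not taken to pair the libraries, since no label pairs them. The correlations of same-numbered deviations from the group means were 0.024, 0.17 and 0.058. Hcy replicates 2 and 3 correlated best with the Veh library of their own number, and Hcy replicate 1 with Veh replicate 3 (0.13). From these values it cannot be told whether same-numbered libraries are paired. With the replicate block 298 of all genes passed in place of 341, the same 2 cell death genes among them (Bcl2l1 adjusted p = 0.0286 and Mdm2 adjusted p = 0.00398 with edgeR), and of the list genes Tnfrsf1b did not (adjusted p = 0.0525). Among the 34 genes the median standard error of the log2 fold change was 0.11.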
